A study of Homo sapiens with 9 samples.

Results

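Clone 11H1 is a DYRK1A KO line derived from SET2, a JAK2 mutant cell line from a patient whose myeloproliferative neoplasm (MPN) had progressed to acute myeloid leukemia, and it was compared here with the parental WT cells by bulk RNA-seq. The comparison used 6 of the 9 libraries of the series, 3 of WT SET2 cells without treatment and 3 of untreated 11H1 cells carrying the edited DYRK1A gene. The other 3 libraries are of a second KO clone, 14B5, and are used only where 11H1 is set beside it. Of 60662 genes listed, 16675 were expressed highly enough to be tested in 11H1 versus WT. The clones were made by nucleofection of a Cas9 ribonucleoprotein, sorting of single cells and selection of clones in which sequencing of the target found only out-of-frame indels. Both groups share the JAK2 mutant background and the culture conditions of the line. The model has limits: 11H1 is 1 clone from 1 founder cell, the 3 libraries are replicates of that clone, and the series has no library of an unedited single cell clone. The effect of editing, of passing through a single cell and of clonal drift therefore cannot be told apart. The libraries of a group are not said to be separate cultures, so p values measure the spread between these libraries, which may be technical. 

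DYRK1A is a kinase of the DYRK family, which autophosphorylates on tyrosine and then phosphorylates serine and threonine residues of other proteins. One of its known substrates is LIN52, a subunit of the MuvB core, and phosphorylated LIN52 allows MuvB to join RBL1 or RBL2 and E2F4 in the DREAM complex, which represses cell cycle genes in quiescent cells. DREAM reaches these genes through 2 promoter elements, the E2F site, common in S phase and DNA repair genes, and the cell cycle homology region (CHR), common in mitotic genes. Megakaryocytes, the platelet producing cells of the marrow, share a progenitor with erythroid cells, and in MPN they signal through JAK2.

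DYRK1A mRNA was close to its WT level in 11H1. It was at 198, 196 and 218 CPM in libraries 1 to 3 of WT and 191, 192 and 193 CPM in 11H1 (ENSG00000157540.21, chr21:37365573-37526358 of GRCh38), in CPM (counts relative to library sizes that were scaled by edgeR's TMM method). All 3 11H1 libraries lay below all 3 WT libraries, but by little (log2 fold change [log2FC] −0.09, standard error [SE] 0.05, adjusted p = 0.131 by the quasi-likelihood test of edgeR), which did not pass the threshold of 0.05. A total count does not show the reading frame, so the mRNA level is no test of the knockout. Of the 12 DYRK, CLK and HIPK kinases, 5 rose and 0 fell, where 31.8% of all genes tested rose and 32.8% fell. Their median log2FC was 0.10, against −0.01 over all genes tested. It was 0.06 without WT library 2 and 0.17 without WT library 3. DYRK1B, the closest relative of DYRK1A, rose from 1.35 ± 0.118 CPM in WT to 2.5 ± 0.074 CPM in 11H1 (SD, n = 3; log2FC 0.89, SE 0.15, adjusted p = 0.000201 in edgeR), the largest change of the family. CLK2 rose by 0.64 and CLK4 by 0.43, both kinases of SR splicing factors. HIPK2 rose by 0.29 in 11H1 and fell in 14B5, where its log2FC against the same WT libraries was −0.88.

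The libraries held 32347779 to 53582343 expected counts, and a gene with no counts in the smallest library may still have been at up to 0.0917 CPM (3 counts, a limit for counting error only). Libraries of 11H1 differed from each other by 4.04 to 5.62 times the noise of sampling, per gene, and from WT libraries by 100 to 181 times. WT library 1 stood apart from WT libraries 2 and 3 (21.3 and 35.8 times, against 12.1 between those 2), and its mitochondrial share was 6.03%, against 3.76% and 3.54%, so results that rest on it are also given without it. Megakaryocytic and erythroid markers of the line were counted in both groups, except that PF4, a platelet chemokine, was at 0.511, 0.463 and 0.559 CPM in WT and 0 CPM in 11H1. All 8 megakaryocyte markers fell, where 32.8% of all genes tested fell and 31.8% rose. Their summed level was 1567 to 1573 CPM in WT and 1096 to 1148 CPM in 11H1. Of 8 erythroid markers 4 rose and 3 fell, and the sums overlapped between groups (13660 to 15670 CPM in WT, 13000 to 14090 CPM in 11H1). Mast cell and basophil markers summed to 1497 to 1652 CPM in WT and to 1773 to 1861 CPM in 11H1, with 1 of 5 higher and 4 lower. Markers of other lineages had lower sums. The 8 granulocyte and monocyte markers summed to 259.8 to 266.2 CPM in WT and 141.4 to 147.7 CPM in 11H1, with 3 at or below 3 counts in every library. The highest were LYZ (means 197 and 105.2 CPM) and SPI1 (64.69 and 38.31 CPM). The longer granulocyte and monocyte list described below summed to 1304 to 1315 CPM in WT and 925.8 to 932.5 CPM in 11H1. The 6 lymphoid markers summed to 39.18 to 43.82 CPM in WT and 30.41 to 31.02 CPM in 11H1. The 5 stromal and endothelial markers summed to 21.89 to 25.29 and 7.33 to 7.61 CPM. In bulk RNA, fewer cells of a type and less RNA of a gene per cell cannot be told apart.

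Most of the transcriptome differed, largely by small amounts. Past an adjusted p of 0.05 were 10772 of 16675 genes (64.6%), of which 5296 (31.8%) were higher and 5476 (32.8%) lower in 11H1. The libraries of the groups did not overlap for 11444 genes (68.6%), and 11305 genes had an unadjusted p below 0.05. The median absolute log2FC of the genes past the threshold was 0.50, and 5383 of them moved by 0.5 or less. Large changes were more often losses: 963 genes (5.78%) rose and 1422 (8.53%) fell by more than 1, and 142 rose and 547 fell by more than 2. The share past the threshold was larger at higher expression, from 53.0% of the genes in the lowest of 3 equal bins of level to 71.8% in the highest. Set directly against 14B5, 10419 of 16352 genes (63.7%) differed, 5162 (31.6%) higher and 5257 (32.1%) lower in 11H1, a share close to that of 11H1 versus WT. With so large a background, a list of genes is read below against these shares and not from its count alone.

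**Figure D1:**
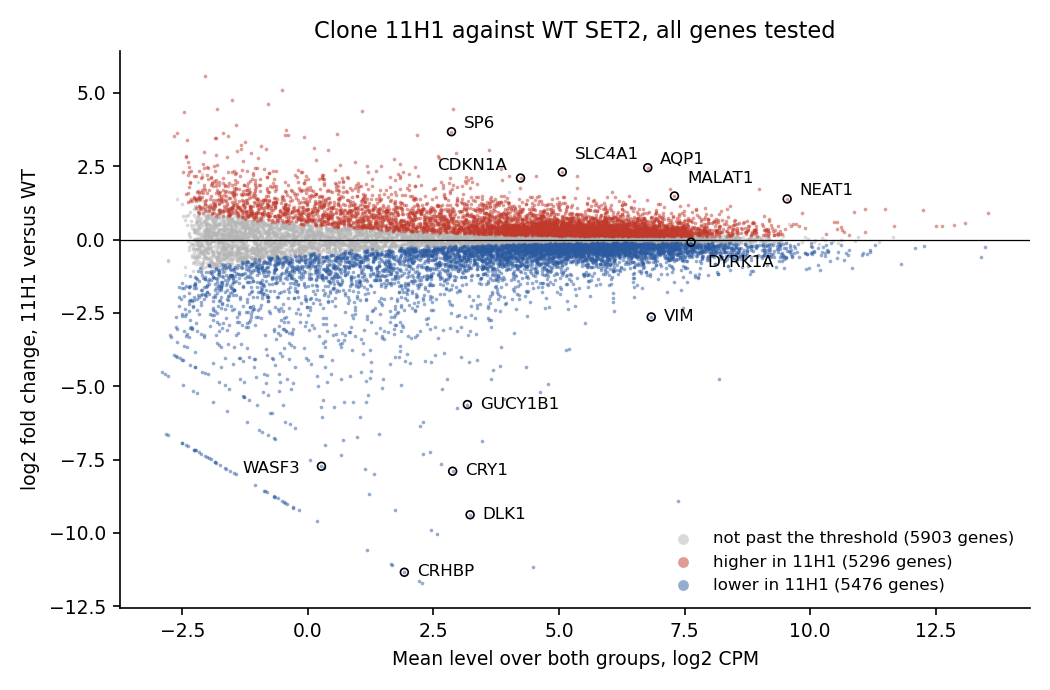
Each point is 1 of the 16675 genes tested, placed by its mean level over both groups (x axis, log2 CPM) and its log2 fold change in 11H1 versus WT (y axis), red where higher and blue where lower in 11H1 past an adjusted p of 0.05. The 547 losses beyond 2 reach much further from 0 than the 142 gains, and DYRK1A lies near 0.

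The largest gains were in genes that WT cells barely expressed. SP6, a zinc finger transcription factor, was at 1.0, 1.14 and 0.996 CPM in libraries 1 to 3 of WT and 12.3, 14.2 and 13.9 CPM in 11H1 (log2FC 3.68, SE 0.11, adjusted p = 2.85e-10 in edgeR). PLA2G2A, a secreted phospholipase A2, was at 0.777, 0.631 and 0.704 CPM in WT and 8.63, 8.12 and 8.13 CPM in 11H1, and PAPPA, a protease that releases insulin-like growth factors, at 2.52, 2.48 and 2.89 CPM in WT and 23.3, 20.2 and 21.9 CPM in 11H1. In all 3 genes every 11H1 library exceeded every WT library by several-fold. The rises of PLA2G2A and SP6 differed in size between the clones (log2FC 5.96 and 2.15 in 14B5, adjusted p = 4.99e-10 and 8.17e-08 for 11H1 versus 14B5 in edgeR), whereas for PAPPA the direct difference did not pass the threshold (3.04 in 14B5, adjusted p = 0.916). MTUS1, a microtubule associated protein, rose from 0.639 ± 0.0741 CPM in WT to 14.2 ± 0.753 CPM in 11H1 (SD, n = 3; log2FC 4.47), the largest rise among protein-coding genes above 5 CPM. YBX2, a germ cell RNA binding protein, rose by 2.85, EPPK1, a plakin of the cytoskeleton, by 2.76, and HTRA3, a serine protease, by 2.56.

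Several gains were in genes that were already well expressed. AQP1, the water channel of red cells, was at 32.7, 33.8 and 34.5 CPM in libraries 1 to 3 of WT and 183, 186 and 184 CPM in 11H1, with less than 3 CPM between the libraries of a group (log2FC 2.45, SE 0.05, adjusted p = 6.68e-12 in edgeR). SLC4A1 (band 3), the anion exchanger of the red cell membrane, was at 10.2, 11.6 and 12.2 CPM in WT and 57.5, 56.3 and 53.3 CPM in 11H1 (log2FC 2.31, SE 0.07, adjusted p = 2.2e-10). KIF5A, a kinesin known from neurons, rose from 8.47 ± 0.158 CPM in WT to 38.1 ± 1.94 CPM in 11H1 (SD, n = 3). In each of these genes the groups were far apart. CDKN1A (p21), an inhibitor of cyclin dependent kinases, was at 6.89, 7.51 and 7.0 CPM in WT and 31.2, 31.3 and 29.1 CPM in 11H1, a rise of 2.10 that was larger than in 14B5 (1.64, adjusted p = 2.66e-05 for the direct test). One gene met the rule for a gain from the floor, at most 3 counts in each WT library and at least 1 CPM in 11H1: TLX1, a homeobox factor known from T cell leukemia, at 0.0205, 0.021 and 0.0729 CPM in WT and 1.36, 1.47 and 1.25 CPM in 11H1, 37.4-fold higher in 11H1 (95% counting interval 15.7 to 117).

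Some losses were down to the floor. Expression went to the floor of 3 counts per library in 64 genes that had at least 1 CPM in WT, 51 of them protein-coding, and 1 gene made the opposite change. TMPRSS15 (enteropeptidase, chr21:18269116-18485879), with the most counts in WT of the 10 named, was at 43.5, 43.2 and 47.8 CPM in libraries 1 to 3 of WT and 0, 0 and 0.0611 CPM in 11H1, 2660-fold lower in 11H1 (95% counting interval 736 to 21970). DLK1, a membrane protein of the Notch ligand family found on progenitors, was at 17.9, 19.6 and 18.8 CPM in WT and 0, 0.0305 and 0.0611 CPM in 11H1, 743-fold lower in 11H1 (95% counting interval 254 to 3607). CRY1, a repressor of the circadian clock, was at 14.1, 14.7 and 15.3 CPM in WT and 0.0558, 0.0305 and 0.0917 CPM in 11H1, 249-fold lower in 11H1 (95% counting interval 121 to 621). The WT libraries were close to each other in these 3 genes and every 11H1 library was far below them. CRHBP, which binds corticotropin releasing hormone and marks stem cells in blood, was at 7.51, 7.98 and 7.24 CPM in WT and 0 CPM in 11H1, at least 95.03-fold lower when 11H1 is set at the floor of 3 counts per library. No reads of DPP10, a membrane protein that modulates potassium channels, DPEP3, a membrane dipeptidase, or AGMAT, an agmatinase, were counted in 11H1, and against the floor their WT levels of 9.69, 9.33 and 6.26 CPM were at least 121.5, 117 and 78.6-fold higher. EMC10, a subunit of the complex that inserts membrane proteins in the endoplasmic reticulum, had 1 count over the 3 11H1 libraries and 11.9 CPM in WT, 1424-fold lower in 11H1 (95% counting interval 255 to 56270). ID4, an inhibitor of helix-loop-helix factors, was 166-fold lower in 11H1 (95% counting interval 80.4 to 414), and EYA1, a transcriptional coactivator, was 158-fold lower in 11H1 (95% counting interval 80.2 to 368). All of these were also lost or nearly lost in 14B5 against the same WT libraries, and all were too low in both clones for a direct test. The lncRNA AP001531.1 fell from 328 ± 50.1 CPM in WT to 0.705 ± 0.166 CPM in 11H1 (SD, n = 3) and LINC01470 from 29.3 ± 0.442 CPM in WT to 0.665 ± 0.0818 CPM in 11H1.

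Some losses set 11H1 apart from 14B5. GUCY1B1, the beta subunit of the nitric oxide receptor guanylate cyclase, was at 17.1, 16.6 and 19.6 CPM in libraries 1 to 3 of WT and 0.577, 0.0611 and 0.306 CPM in 11H1 (log2FC −5.62, SE 0.24, adjusted p = 3.72e-09 in edgeR). It was much closer to WT in 14B5 (log2FC −0.61, adjusted p = 3.25e-08 for 11H1 versus 14B5). WASF3, an activator of actin branching, was at 2.07, 2.59 and 2.55 CPM in WT and 0, 0.0305 and 0 CPM in 11H1 and had a log2FC of −1.47 in 14B5 (adjusted p = 1.96e-06 for the direct test). RCAN3, a regulator of calcineurin, fell by 2.11 on the log2 scale in 11H1 and MITF, a factor of mast cells and melanocytes, by 2.15, where 14B5 had −0.29 and −0.19 (adjusted p = 7.68e-07 and 7.02e-06 for the direct tests).

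**Figure D2:**
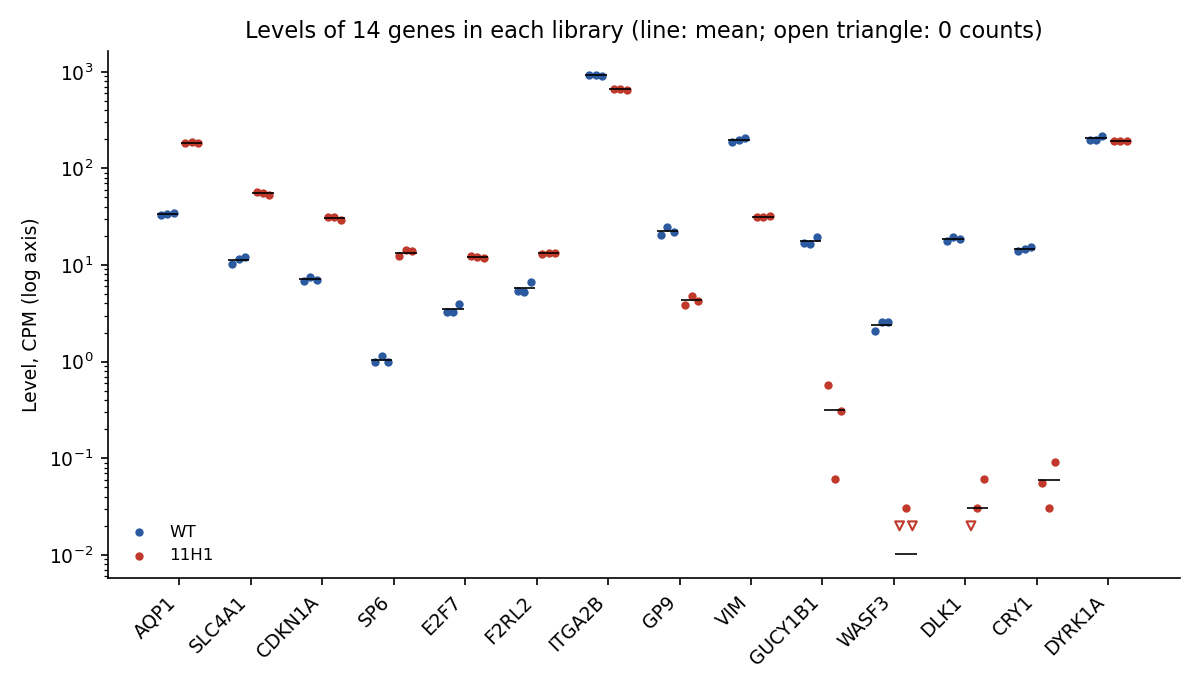
Levels of 14 genes in each library (y axis, CPM on a log axis), WT in blue and 11H1 in red, with a line at each group mean and an open triangle for a library with 0 counts. AQP1, SLC4A1, CDKN1A, SP6, E2F7 and F2RL2 are higher in every 11H1 library and the other genes lower, with DYRK1A differing least.

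Genes of DNA replication, mitosis and recombination repair rose together by small amounts. Of 36 homologous recombination and Fanconi genes 29 rose and 1 fell (median log2FC 0.36), of 49 replication genes 33 rose and 4 fell (median 0.23), and of 49 mitotic genes 34 rose and 5 fell (median 0.22), where 31.8% of all genes rose and 32.8% fell. GEN1, a resolvase of Holliday junctions, rose the most among the repair genes, from 35.4 ± 0.907 CPM in WT to 82.98 ± 3.35 CPM in 11H1 (SD, n = 3; log2FC 1.23, SE 0.05, adjusted p = 2.12e-09 in edgeR). PSMC3IP, a cofactor of strand exchange, rose by 1.16, POLQ, the polymerase of end joining at microhomologies, by 1.09, and XRCC2, of strand exchange, by 1.05. RAD51B was the exception that fell (−0.29, adjusted p = 0.0318), and leaving out 1 library at a time its adjusted p ran from 0.0183 to 0.157, above the threshold without WT library 1 or 3 or 11H1 library 1 or 2. The summed level of the repair genes was 1260 to 1310 CPM in WT and 1680 to 1749 CPM in 11H1, with no overlap.

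The S phase genes were led by POLE, the leading strand polymerase, at 143, 132 and 138 CPM in WT and 277, 256 and 258 CPM in 11H1 (log2FC 0.94, SE 0.05, adjusted p = 2.18e-08). ORC6 of the origin recognition complex rose by 0.67, GINS4 of the replicative helicase by 0.55, and TICRR, which loads CDC45 at origins, by 0.52. MCM6, a subunit of the same helicase, went the other way, from 235 ± 6.99 CPM in WT to 160.1 ± 4.06 CPM in 11H1 (SD, n = 3; log2FC −0.55). Among mitotic genes KNL1 of the kinetochore rose by 0.78, CENPF by 0.76, the proliferation marker MKI67 by 0.68 and ASPM of the spindle pole by 0.65. PTTG1 (securin), the inhibitor of separase, fell by 1.09 on the log2 scale and BUB1, a spindle checkpoint kinase, by 0.91, and both lie in chromosome stretches described below in which most genes fell. The level of MKI67 was 138, 139.5 and 161 CPM in WT and 251, 214 and 237 CPM in 11H1, and the groups did not overlap. Compared directly with 14B5, 33 of the 49 replication genes and 26 of the 49 mitotic genes were lower in 11H1 past the threshold. In those lists 4 and 7 were higher, and of the 36 repair genes 8 were lower and 11 higher. Over all genes so tested 32.1% were lower and 31.6% higher in 11H1. Genes for deoxynucleotide synthesis were split in 11H1, with 9 of 24 higher and 8 lower (median 0.02).

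Regulators of the cycle moved in both directions. E2F7, an E2F that represses, was at 3.23, 3.26 and 3.98 CPM in WT and 12.4, 12.03 and 11.8 CPM in 11H1 (log2FC 1.80, SE 0.10, adjusted p = 2.25e-08 in edgeR), and E2F2, an activator, rose by 0.74. Cyclin E1 (CCNE1) fell by 0.61 and CDKN1C (p57) by 0.93 on the log2 scale, while CDKN1A rose as given above. Of the 20 G1 regulators 12 rose and 5 fell (median 0.29), where 31.8% of all genes tested rose and 32.8% fell. Of 13 DREAM and MuvB subunits 6 rose and 1 fell (median 0.17). FOXM1, the factor that joins MuvB at mitotic genes, rose from 103 ± 2.14 CPM in WT to 167 ± 7.61 CPM in 11H1 (SD, n = 3; log2FC 0.70, SE 0.05, adjusted p = 1.67e-07), and RBL1 (p107) rose by 0.57, LIN54, which contacts the CHR, by 0.42, LIN9 by 0.34, MYBL2 by 0.34 and E2F4 by 0.31. RBL2 (p130), the partner of MuvB in resting cells, fell by 0.24 on the log2 scale. LIN52 was at 20.6, 19.3 and 22.5 CPM in WT and 21.5, 22.5 and 22.1 CPM in 11H1, and its log2FC of 0.08 did not pass the threshold (adjusted p = 0.286).

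The promoter sequences of these genes are shown because the elements that DREAM uses are visible in them. Each is the 100 bases before the RefSeq transcription start (GRCh38.p14), 5′ to 3′ on the gene's own strand, with CHR letters (TTTGAA or TTCGAA) or E2F letters (TTTCGCGC, TTTGGCGC or TTCCCGCC) on either strand in capitals. The first 3 are mitotic genes that rose and carry CHR letters: MKI67 (chr10:128126424-128126523, minus strand), KIF4A, a chromokinesin (chrX:70290004-70290103, plus strand; log2FC 0.49), and KIF15, a spindle kinesin (chr3:44761694-44761793, plus strand; 0.51). The next 3 carry E2F letters: RBL1 (chr20:37095998-37096097, minus strand), POLE (chr12:132687343-132687442, minus strand) and HELLS, a chromatin remodeler of the repair list (chr10:94545688-94545787, plus strand; 0.45). The last is MCM6 (chr2:135876444-135876543, minus strand), shown because it fell although it carries 2 overlapping E2F matches.
MKI67: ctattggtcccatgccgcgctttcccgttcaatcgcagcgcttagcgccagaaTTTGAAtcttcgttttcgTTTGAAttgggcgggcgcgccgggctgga
KIF4A: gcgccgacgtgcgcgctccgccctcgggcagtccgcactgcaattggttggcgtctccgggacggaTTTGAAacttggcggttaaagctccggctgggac
KIF15: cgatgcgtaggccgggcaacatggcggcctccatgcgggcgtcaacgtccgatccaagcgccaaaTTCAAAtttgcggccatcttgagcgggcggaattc
RBL1: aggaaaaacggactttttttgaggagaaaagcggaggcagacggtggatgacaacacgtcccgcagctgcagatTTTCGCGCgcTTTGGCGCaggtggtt
POLE: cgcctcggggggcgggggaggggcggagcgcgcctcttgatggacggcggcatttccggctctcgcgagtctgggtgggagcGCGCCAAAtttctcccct
HELLS: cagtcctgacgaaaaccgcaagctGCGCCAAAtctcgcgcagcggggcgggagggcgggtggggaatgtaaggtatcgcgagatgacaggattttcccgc
MCM6: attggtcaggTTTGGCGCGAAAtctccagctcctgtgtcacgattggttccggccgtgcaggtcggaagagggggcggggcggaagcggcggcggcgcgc
In MKI67 the CHR letters begin 47 and 29 bases before the start, in KIF4A 34 bases before it, and in KIF15 they lie on the other strand 35 bases before it. Over promoters of 250 bases before to 50 bases after the start, CHR letters were found in 29 of 40 mitotic genes with a promoter in the table (72.5%), against 11.3% of all tested genes with a promoter and 16.6% of all 27305 promoters. E2F letters were found in 14 of 32 repair genes (43.8%) and 20 of 43 replication genes (46.5%), against 6.78% of tested genes and 4.3% of all promoters. These shares describe the lists, whose members were written down as cell cycle genes, and a match is not a measured site. Among all genes that rose, CHR letters were in 12.1% and E2F letters in 7.38% of promoters, and among all that fell in 11.5% and 5.50%. Among genes not past the threshold the shares were 10.35% and 7.62%, so E2F letters were no more frequent in genes that rose. Beyond a log2FC of 1 the shares were 13.52% and 3.83% for rises and 14.1% and 4.405% for falls.

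**Figure D3:**
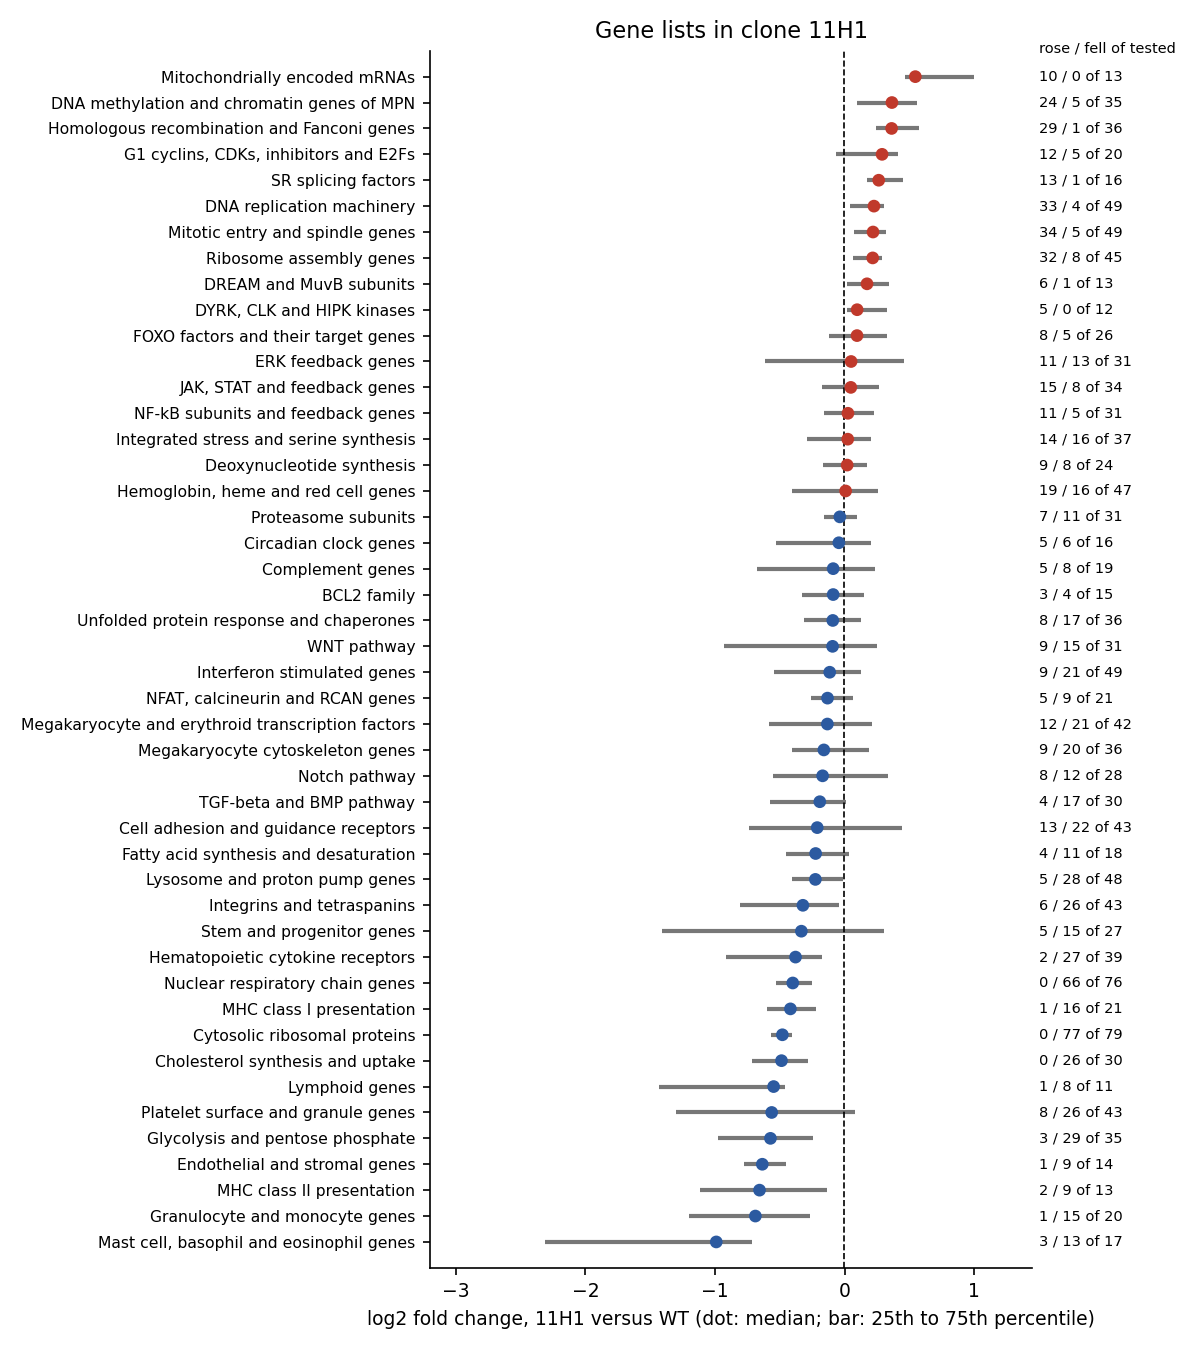
For each of the 46 gene lists, the dot is the median log2 fold change of its tested genes in 11H1 versus WT (x axis), the bar runs from the 25th to the 75th percentile, the dashed line is the median of all genes tested (−0.01), and the text gives how many rose and fell of those tested. Mast cell, granulocyte, MHC class II and endothelial lists lie furthest to the left, and mitochondrially encoded mRNAs, chromatin and recombination repair genes to the right.

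Platelet genes were lower in 11H1. Of 43 platelet surface and granule genes 26 fell and 8 rose (median log2FC −0.56), where 32.8% of all genes tested fell and 31.8% rose. Their summed level was 4417 to 4501 CPM in WT and 3582 to 3609 CPM in 11H1. The subunits of the fibrinogen receptor both fell, ITGA2B from 922 ± 11.2 CPM in WT to 656 ± 13.3 CPM in 11H1 (SD, n = 3; log2FC −0.49, SE 0.04, adjusted p = 1.35e-06 in edgeR) and ITGB3 by 1.43 on the log2 scale. GP9, of the von Willebrand factor receptor, was at 20.4, 24.5 and 22.01 CPM in WT and 3.81, 4.83 and 4.25 CPM in 11H1. SELP, the adhesion receptor of alpha granules, was at 2.8, 2.42 and 2.48 CPM in WT and 0.335, 0.336 and 0.336 CPM in 11H1, and TBXA2R, the thromboxane receptor, at 4.71, 5.47 and 5.59 CPM in WT and 0.8, 1.28 and 0.886 CPM in 11H1. In these 3 genes the highest 11H1 library lay below the lowest WT library. Against the same WT libraries the falls of ITGB3, GP9 and SELP were −3.26, −4.80 and −7.45 in 14B5. Tested directly, 11H1 was higher than 14B5 in 21 of 40 platelet genes and lower in 8, against 31.6% and 32.1% of genes so tested.

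Some platelet genes rose. F2RL2, the thrombin receptor PAR3, was at 5.36, 5.22 and 6.73 CPM in WT and 13.1, 13.3 and 13.3 CPM in 11H1 (log2FC 1.20, SE 0.10, adjusted p = 6.72e-07), and it fell in 14B5 (−2.30; difference between the clones 3.48, adjusted p = 9.07e-10). F13A1, the coagulation factor XIII subunit, rose by 0.97, NBEAL2, required for alpha granules, by 0.84 and CD36 by 0.40. MEG3, a lncRNA from the imprinted region that also holds DLK1, was at 40.05, 39.04 and 32.5 CPM in WT and 51.6, 50.7 and 49.6 CPM in 11H1 (log2FC 0.44) and fell in 14B5 (−6.39, adjusted p = 5.42e-13 for the direct test), whereas DLK1 was lost in both clones. Of 36 cytoskeleton genes of megakaryocytes 20 fell and 9 rose (median −0.16). The intermediate filament protein VIM fell from 197 ± 9.0 CPM in WT to 31.6 ± 0.589 CPM in 11H1 (SD, n = 3; log2FC −2.64, SE 0.05, adjusted p = 8.09e-12), and MYLK, the myosin light chain kinase, fell by 2.19 and ARAP3 by 1.93 on the log2 scale. TAGLN (transgelin) rose by 0.81, tropomyosin TPM1 by 0.46 and myosin heavy chain MYH9 by 0.46.

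The transcription factors of the lineage moved in both directions. TAL1 rose by 0.46 and the small MAF proteins MAFG and MAFK by 0.51 and 0.47, while CEBPA fell by 2.05, GFI1 by 1.76 and CEBPD by 1.26 on the log2 scale. Over the 42 factors 12 rose and 21 fell (median −0.13). CEBPA, a granulocyte factor, was at 7.06, 7.03 and 4.81 CPM in WT and 1.62, 1.62 and 1.31 CPM in 11H1, and the groups were well separated. Of 27 stem and progenitor genes 15 fell and 5 rose (median −0.33), and with at least 10 counts required in every library 10 of 21 fell (median −0.14). CD34 was not among those named by size and was at 260.5, 269.7 and 286 CPM in WT and 97.3, 98.5 and 107 CPM in 11H1. NPR3, the clearance receptor of natriuretic peptides, fell by 4.34 and PROCR, a stem cell surface receptor, by 1.52 on the log2 scale, whereas ITGA6 rose by 0.68, HOXB3 by 0.67 and HOXA7 by 0.50.

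Myeloid and mast cell genes had the lowest medians of the lineage lists. Of 20 granulocyte and monocyte genes 15 fell and 1 rose (median log2FC −0.69), where 32.8% of all genes tested fell and 31.8% rose. Of 17 mast cell, basophil and eosinophil genes 13 fell and 3 rose (median −0.99), and without WT library 2 there was 1 rise. MS4A6A, a membrane protein of monocytes, was at 23.1, 22.4 and 20.7 CPM in WT and 0.167, 0.153 and 0.244 CPM in 11H1. The proteoglycan VCAN was at 2.7, 2.71 and 4.11 CPM in WT and 0.391, 0.397 and 0.244 CPM in 11H1, and ITGAM (CD11b) at 67.8, 66.9 and 72.2 CPM in WT and 26.1, 25.1 and 27.1 CPM in 11H1. The mast cell tryptases fell, TPSAB1 by 3.45 and TPSB2 by 3.05 on the log2 scale, but they are near copies of each other and reads may have been divided between them. MS4A3, a marker of granulocyte and basophil precursors, was at 299.7, 296 and 293 CPM in WT and 56.9, 60.1 and 58.2 CPM in 11H1, and ALOX5AP, which serves leukotriene synthesis, fell by 2.41. HDC, the histamine forming enzyme, rose instead, from 1403 ± 82.5 CPM in WT to 1761 ± 46.9 CPM in 11H1 (SD, n = 3; log2FC 0.33, SE 0.05, adjusted p = 0.000175 in edgeR), and it fell in 14B5 (−0.20, adjusted p = 6.65e-07 for the direct test). HDC is the 1 of the 5 mast cell and basophil markers that rose. Of 11 lymphoid genes 1 rose and 8 fell, and of 14 endothelial and stromal genes 1 rose and 9 fell. The lymphoid gene ICOS was at 6.14, 4.86 and 6.7 CPM in WT and 0.353, 0.244 and 0.306 CPM in 11H1 and the endothelial receptor KDR at 11.9, 11.7 and 13.04 CPM in WT and 0.949, 1.01 and 0.52 CPM in 11H1. COL1A1, a collagen, rose by 1.41 and CD3D, of the T cell receptor complex, by 1.86, both falling in 14B5 (−1.17 and −1.28).

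Red cell genes were split. Of 47 genes for hemoglobin, heme and the red cell membrane 19 rose and 16 fell (median log2FC 0.01). The shares over all genes tested were 31.8% and 32.8%. Membrane and cytoskeleton genes led the rises: besides SLC4A1, ACHE, the acetylcholinesterase of the red cell surface, rose by 1.83 and beta spectrin SPTB by 0.91. SPTB was at 101, 100.3 and 110.3 CPM in WT and 208, 184 and 192 CPM in 11H1, with no overlap between groups. Among globins HBA1 rose from 1334 ± 125 CPM in WT to 1798 ± 86.5 CPM in 11H1 (SD, n = 3; log2FC 0.43, SE 0.07, adjusted p = 0.000129 in edgeR), while the fetal gene HBG2 fell from 12410 ± 976 CPM in WT to 10460 ± 459.5 CPM in 11H1 (log2FC −0.25, SE 0.06, adjusted p = 0.00398), embryonic HBZ by 1.52 and HBD by 1.26 on the log2 scale. Globin genes lie in families of near copies, HBA1 with HBA2 and HBG1 with HBG2, and reads may have been divided between them. HMOX1, the heme oxygenase that degrades heme, fell by 1.93. EPOR, the erythropoietin receptor, was at 46.4, 53.8 and 48.9 CPM in WT and 104, 107 and 96.95 CPM in 11H1, a rise of 1.04 (adjusted p = 4.04e-08).

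EPOR and IL6ST were the only 2 of 39 hematopoietic cytokine receptors that rose past the threshold, and 27 fell (median log2FC −0.38). The shares over all genes tested were 31.8% and 32.8%. IL1RL1, the receptor of interleukin 33, fell by 3.03, TNFRSF1B by 2.01, IL5RA by 1.63 and IL21R by 1.59 on the log2 scale. IL1RL1 was at 5.09, 4.55 and 4.81 CPM in WT and 0.577, 0.611 and 0.581 CPM in 11H1. Receptors that fell in 11H1 and were higher than WT in 14B5 included IL10RB (−0.61 and 0.18; adjusted p = 8.83e-08 between the clones in edgeR). Tested directly against 14B5, 24 of 37 receptors were lower and 5 higher in 11H1, against 32.1% and 31.6% of all genes so tested.

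Below the receptors, JAK2 itself fell from 149.8 ± 11.1 CPM in WT to 97.99 ± 7.4 CPM in 11H1 (SD, n = 3; log2FC −0.61, SE 0.07, adjusted p = 7.09e-06 in edgeR), and JAK3 rose by 0.47. Of 34 JAK, STAT and feedback genes 15 rose and 8 fell (median 0.05), where 31.8% of all genes tested rose and 32.8% fell. The STAT5 targets did not move as one: SOCS2 fell by 0.38 and PIM1 by 0.31 on the log2 scale, while SOCS3 rose by 0.67 and CISH by 0.30. PIM1 and JAK3 took opposite directions in 14B5 (log2FC 0.28 and −0.25; adjusted p = 1.74e-07 and 1.08e-07 for the direct tests). STAT6 fell by 0.31 and the phosphatase PTPN1 by 0.48. Without WT library 1 this list had 13 rises and 11 falls (median 0.02), and without WT library 3 the median was 0.09. Of 15 BCL2 family genes 3 rose and 4 fell (median −0.09). Leaving out 1 library moved that median from −0.16 without WT library 1 to −0.005 without 11H1 library 2, and the summed level was higher in 11H1 (655.8 to 673.4 CPM in WT, 696.6 to 720.7 CPM in 11H1). The survival factors were divided, with BCL2 at 6.14, 6.69 and 6.22 CPM in WT and 3.52, 4.55 and 4.58 CPM in 11H1 (log2FC −0.61, SE 0.12, adjusted p = 0.000683) and BCL2L1 lower by 0.27, against MCL1, which rose by 0.44, and BCL2L2, by 0.31. Of the death promoting members BCL2L11 (BIM) rose by 0.30, and PMAIP1 (NOXA) fell by 0.54 and BID by 0.48.

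ERK feedback genes were split, with 11 rises and 13 falls of 31, close to the shares over all genes (median 0.05, and 0.002 to 0.08 when 1 library was left out, the lowest without WT library 2). ETV4 fell by 1.97 and ETV5 by 1.47 on the log2 scale, and DUSP6, the phosphatase of ERK, was at 2.21, 2.42 and 2.26 CPM in WT and 0.781, 0.916 and 0.978 CPM in 11H1. FOS was at 0.307, 0.484 and 0.462 CPM in WT and 1.21, 0.916 and 1.99 CPM in 11H1, PHLDA1 rose by 1.57 and IER3 by 1.11. The fall of DUSP6 was smaller than in 14B5 (−3.12, adjusted p = 0.000807 for the direct test in edgeR). SPRED3 rose by 1.17. In the NF-kB list 11 of 31 genes (35.5%) rose and 5 fell, where 31.8% of all genes tested rose and 32.8% fell. NFKBIZ was at 0.78, IKBKB at 0.65 and CXCL8 at 0.57. In the TGF-beta and BMP list 17 of 30 fell and 4 rose (median −0.19), SMAD1 by 2.20 on the log2 scale, and the binding protein LTBP3 rose by 0.96. WNT genes had 9 rises and 15 falls of 31 and Notch genes 8 and 12 of 28, with the receptors FZD7 and NOTCH2 lower by 2.03 and 1.22. Of 26 FOXO factors and their target genes 8 rose and 5 fell (median 0.10), of 21 NFAT, calcineurin and RCAN genes 5 rose and 9 fell, of 19 complement genes 5 and 8, and of 16 clock genes 5 and 6. Without WT library 1 the FOXO list had 6 rises and 6 falls (median 0.04), and without WT library 3 it had 11 and 4 (median 0.14). Without WT library 2 or 11H1 library 1 only 3 clock genes rose. C5AR1, the receptor of complement fragment C5a, was at 2.35, 2.55 and 3.25 CPM in WT and 12.3, 12 and 10.3 CPM in 11H1.

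Most antigen presentation genes fell. Of 21 MHC class I genes 16 fell and 1 rose (median log2FC −0.42), and of 13 class II genes 9 fell and 2 rose (median −0.66). Over all genes tested 32.8% fell and 31.8% rose. The summed level of the class II list nevertheless overlapped between the groups, at 271 to 289.1 CPM in WT and 280.3 to 285.8 CPM in 11H1. HLA-E was at 292, 312 and 290.2 CPM in WT and 152, 151 and 153 CPM in 11H1 (log2FC −0.97, SE 0.05, adjusted p = 7.99e-09 in edgeR). The immunoproteasome subunits PSMB10 and PSMB9 fell by 0.92 and 0.84 on the log2 scale. CIITA, the activator of class II genes, was at 5.11, 6.04 and 5.66 CPM in WT and 2.46, 2.11 and 2.29 CPM in 11H1, HLA-DRA at 5.63, 5.54 and 5.1 CPM in WT and 0.8, 0.641 and 1.22 CPM in 11H1 and HLA-DRB1 at 3.72, 3.98 and 3.91 CPM in WT and 1.06, 0.825 and 1.5 CPM in 11H1. These class II genes were at low levels, and HLA genes are a family of near copies with many alleles, so counts are uncertain. RFX5, another class II regulator, rose by 0.64 and HLA-DOB by 0.89. Class I genes were also lower than in 14B5, with 15 of 21 genes lower in the direct test and 2 higher. Over all genes so tested 32.1% were lower and 31.6% higher. TAP1, the peptide transporter, fell in 11H1 (−0.48) and rose in 14B5 (0.20, adjusted p = 2.14e-07 between the clones). NLRC5, a regulator of class I genes, rose by 0.19. Of 49 interferon stimulated genes 21 fell and 9 rose (median −0.11), with BST2 at 77.5, 74.2 and 64.3 CPM in WT and 22.6, 24.2 and 23.1 CPM in 11H1, USP18 lower by 1.98 and IRF9 higher by 0.56.

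The 2 genomes that encode the respiratory chain went in opposite directions. Of 13 mitochondrially encoded mRNAs 10 rose and 0 fell (median log2FC 0.55), and of 76 nuclear respiratory chain genes 0 rose and 66 fell (median −0.40). Over all genes tested 31.8% rose and 32.8% fell. MT-CO1, a core subunit of cytochrome oxidase, was at 11550, 6934 and 6651 CPM in WT and 15660, 15550 and 15620 CPM in 11H1 (log2FC 0.90, SE 0.16, adjusted p = 0.000383 in edgeR). MT-ND6, the only mRNA on its strand, was at 109, 65.5 and 29.1 CPM in WT and 184, 242 and 257 CPM in 11H1 (log2FC 1.74). MT-CYB rose by 1.06, MT-ND1 by 1.06, MT-ND2 by 1.001, MT-ND5 by 0.95, and MT-ND4, MT-ATP6, MT-CO2 and MT-CO3 by 0.51, 0.48, 0.47 and 0.46. MT-ND3, MT-ATP8 and MT-ND4L did not pass the threshold, WT library 1 lying within or above the range of the 11H1 libraries. The sum of the 13 was 51460, 30680 and 28350 CPM in WT and 60410, 59590 and 60640 CPM in 11H1. The adjusted p values of MT-ND4, MT-CO2, MT-CO3 and MT-ATP6 in edgeR were above the threshold without WT library 2 or 11H1 library 1, reaching 0.0734, 0.0902, 0.113 and 0.131 when 1 library was left out. Those of the last 3 were also above it without WT library 3 or 11H1 library 3, and those of MT-CO3 and MT-ATP6 without 11H1 library 2 too. Without WT library 1 all 13 rose and the median was 1.02, without WT library 3 the median was 0.36, and without WT library 2 or without 11H1 library 1 only 6 passed the threshold. In a direct test all 13 were higher in 11H1 than in 14B5, against 31.6% of all genes so tested.

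On the nuclear side SDHA, a subunit of complex II, fell by 1.27 on the log2 scale, NDUFA2 by 0.75, NDUFS6 by 0.75 and COX5B by 0.69. SDHA and NDUFS6 lie in the first 10000000 bases of chromosome 5, where 23 of 35 genes fell and 5 rose (median −0.35, and −0.72 in 14B5). NDUFA2 lies on chromosome 5 between 140000001 and 150000000, where 43 of 85 genes fell and 15 rose (median −0.29, and −0.42 in 14B5). The part of position in these falls was not tested. The 76 genes summed to 11410, 10910 and 9950 CPM in WT and 7745, 8419 and 8417 CPM in 11H1, with every 11H1 library below every WT library. Ribosomal protein genes moved the same way, 77 of 79 lower and 0 higher (median −0.48), and their sum was 74220, 70620 and 61690 CPM in WT and 46900, 50890 and 50840 CPM in 11H1. Without WT library 1, 71 of 79 ribosomal protein genes and 56 of 76 respiratory chain genes fell. Without 11H1 library 1 these counts were 67 and 48. The elongation factor EEF1A1, with the most counts of the nuclear genes that fell, was at 13150, 12780 and 13170 CPM in WT and 8729, 8509 and 8890 CPM in 11H1. RPS14 and RPL31 fell the most, by 1.17 and 1.10, and both lie in the chromosome stretches described below. In the direct test 75 of 79 ribosomal protein genes and 64 of 76 respiratory chain genes were lower in 11H1 and none was higher than in 14B5. Over all genes so tested 32.1% were lower and 31.6% higher. Genes that assemble ribosomes did the opposite, with 32 of 45 higher and 8 lower (median 0.22). UTP20 rose by 0.56, POLR1A, the largest subunit of RNA polymerase I, by 0.52 and NOP56 by 0.51, while NPM1 (nucleophosmin) fell by 0.48 and LYAR by 0.85.

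**Figure D4:**
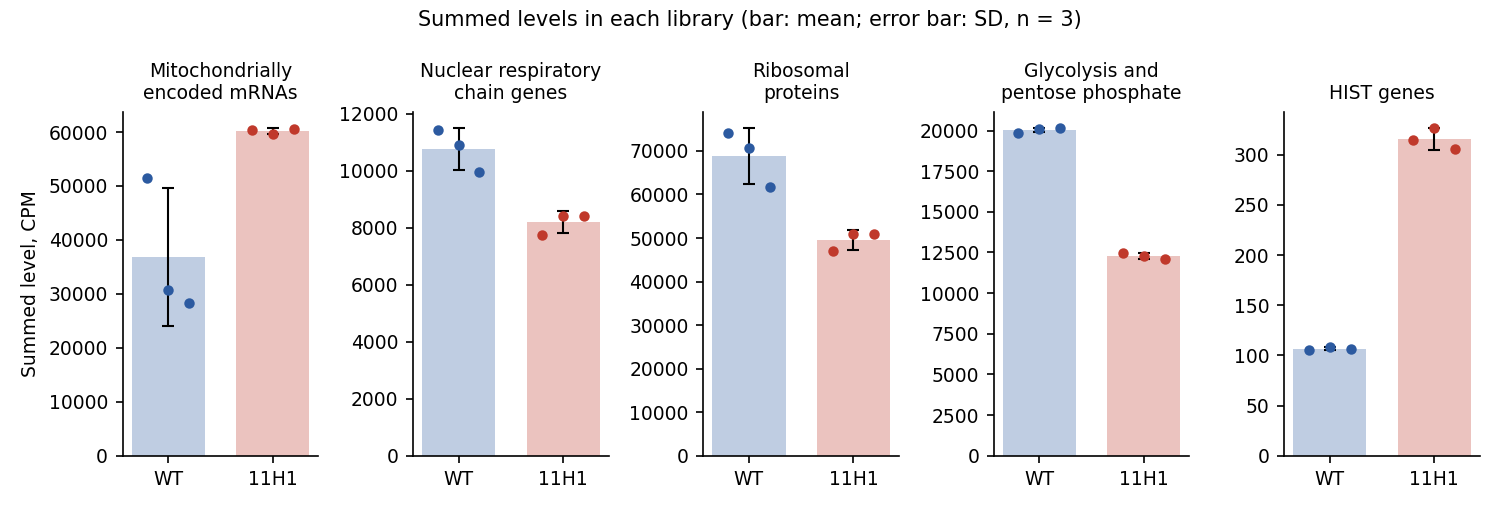
Summed levels (y axis, CPM, from 0) of 5 gene groups in WT and 11H1, with a point per library, a bar at the mean and an error bar of 1 SD (n = 3). WT library 1 reaches 51460 CPM for mitochondrially encoded mRNAs and lies below the 3 11H1 libraries, and the nuclear respiratory chain, ribosomal protein and glycolysis genes are lower in every 11H1 library.

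Most genes of sugar and sterol metabolism fell. Of 35 glycolysis and pentose phosphate genes 29 fell and 3 rose (median log2FC −0.57), where 32.8% of all genes tested fell and 31.8% rose. Their sum was 19860, 20070 and 20130 CPM in WT and 12470, 12280 and 12090 CPM in 11H1. ALDOC, an aldolase, was at 63.5, 68.6 and 73.5 CPM in WT and 5.58, 4.89 and 4.86 CPM in 11H1. GAPDH, the dehydrogenase of glyceraldehyde phosphate, fell from 4556 ± 44.7 CPM in WT to 2583 ± 112 CPM in 11H1 (SD, n = 3; log2FC −0.82, SE 0.05, adjusted p = 4.68e-08 in edgeR). PFKFB4 fell by 2.45, the lactate exporter SLC16A3 by 1.35 and PDK1, which inhibits pyruvate dehydrogenase, by 1.20 on the log2 scale. Among those that rose, ENO2 rose by 0.35 and HK1 by 0.29. DDIT4 and BHLHE40, which are induced when oxygen is low, were at 30.5, 35.5 and 38.1 CPM in WT and 7.68, 9.07 and 7.18 CPM in 11H1 and 38.1, 40.2 and 49.99 CPM in WT and 10.2, 10.5 and 11.6 CPM in 11H1. The part of oxygen in these levels was not tested. Of 30 sterol genes 26 fell and 0 rose (median −0.49), INSIG1 by 1.40 and SREBF1 by 0.97, and of 18 fatty acid genes 11 fell and 4 rose, with SCD at 1237, 1259 and 1399 CPM in WT and 666, 628 and 654 CPM in 11H1 and ME1, which makes NADPH, lower by 1.92. In the direct test 28 of 35 glycolysis genes and 18 of 30 sterol genes were lower in 11H1 than in 14B5. Those higher numbered 2 and 4, and over all genes so tested 32.1% were lower and 31.6% higher.

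Amino acid and stress genes were mixed. Of 37 integrated stress and serine synthesis genes 14 rose and 16 fell (median 0.03), with CHAC1 higher by 1.42 and ASNS, the asparagine synthetase, by 1.0, and with PHGDH, the first enzyme of serine synthesis, lower by 1.07 on the log2 scale. Of 36 unfolded protein response genes 8 rose and 17 fell, of 31 proteasome subunits 7 rose and 11 fell, and of 48 lysosome genes 5 rose and 28 fell (medians −0.09, −0.04 and −0.23). The shares over all genes tested were 31.8% higher and 32.8% lower. ASNS was at 5.93, 6.33 and 5.39 CPM in WT and 11.7, 10.9 and 12.7 CPM in 11H1, and the groups did not overlap. Without WT library 2 the proteasome list had 4 rises and without 11H1 library 1 it had 7 falls. ASAH1, the acid ceramidase, fell by 1.18 and CTSZ by 1.20.

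Chromatin and splicing genes rose. Of 35 chromatin genes, many of them mutated in MPN, 24 rose and 5 fell (median log2FC 0.37), and of 16 SR splicing factors and their kinases 13 rose and 1 fell (median 0.26). Over all genes tested 31.8% rose and 32.8% fell. The histone methyltransferases KMT2D, KMT2A and KMT2B rose by 1.03, 0.87 and 0.79, and in 14B5 they had values of −0.22, −0.18 and −0.17. KMT2D was at 129, 148 and 140.3 CPM in WT and 307, 255 and 288 CPM in 11H1 (log2FC 1.03, SE 0.07, adjusted p = 1.75e-07 in edgeR; adjusted p = 7.17e-06 for 11H1 versus 14B5). ASXL3, a Polycomb associated protein, was at 0.0818, 0.021 and 0.0243 CPM in WT and 1.41, 0.855 and 1.07 CPM in 11H1, a rise of 4.62. IDH2, which makes alpha-ketoglutarate in mitochondria, fell by 1.11 and IDH1 by 0.54. SRSF6 rose by 0.77, SRSF10 by 0.65, SRSF5 by 0.58 and TRA2A by 0.41.

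Histone genes of the clustered families stood out once the largest rises were read, and they were looked at as a group only after that. Of 39 coding genes with symbols that begin with HIST, 35 rose and none fell, 30 of them by more than 1 (median log2FC 1.42). Many of them are near copies, among which reads may have been divided. HIST1H1C, a linker histone, was at 15.7, 15.5 and 13.4 CPM in libraries 1 to 3 of WT and 67.3, 70.9 and 62.8 CPM in 11H1 (log2FC 2.17, SE 0.07, adjusted p = 4.14e-10), and HIST1H2AC was at 26.2, 28.4 and 29 CPM in WT and 66.1, 67.2 and 66.3 CPM in 11H1. The 39 summed to 105.4, 108.7 and 105.9 CPM in WT and 314.8, 326.8 and 305.7 CPM in 11H1. In the direct test 30 of the 39 were higher in 11H1 than in 14B5 and none lower. Over all genes so tested 31.6% were higher and 32.1% lower. Most mRNAs of these genes end in a stem loop without a poly(A) tail. Of the 12 other histone genes tested, a group that holds some genes with such ends too, 4 rose and 2 fell (median 0.08). H2AFY (macroH2A) had the lowest log2FC of these (−1.06), at 624, 617 and 609.9 CPM in WT and 302, 291 and 292 CPM in 11H1. It had a log2FC of −0.86 in 14B5. H2AFY lies on chromosome 5 between 130000001 and 140000000, where 60 of 75 genes fell and 7 rose (median −0.45, and −0.40 in 14B5). Nuclear lncRNAs rose too, also chosen after their values were seen: NEAT1 was at 482, 418 and 338 CPM in WT and 1055, 1101 and 1080 CPM in 11H1, MALAT1 at 92.01, 86.01 and 70.4 CPM in WT and 220.3, 232 and 244 CPM in 11H1, and both were nearer WT in 14B5 (0.16 and −0.15; adjusted p = 3.35e-09 and 9.86e-08 for the direct tests). RN7SK, a small nuclear RNA made by RNA polymerase III that has no poly(A) tail, rose by 2.95 and had a log2FC of 2.77 in 14B5. By class, 661 of 2033 lncRNAs rose and 415 fell (median 0.18), 75 of 145 unclassified transcripts of the annotation (TEC) rose and 12 fell (median 0.66), and of 13368 protein-coding genes 4271 rose and 4816 fell (median −0.03). The sample labels name a SMARTER mRNA kit and the methods of the study a TruSeq Stranded mRNA kit, so how RNAs without poly(A) tails entered the libraries is not known. Mitochondrial share and the levels of such RNAs moved with the groups, and their part in these results was not tested.

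Genes that rose had longer transcripts than genes that fell. The median length of the longest transcript was 3872 bases for genes that rose, 3012 for genes that fell and 3202 for all tested, and it was 1857 for ribosomal protein genes and 1432 for nuclear respiratory chain genes, which fell, against 3570 for repair and 3568 for mitotic genes. Among changes beyond 1 the order was the other way, 2732 for rises and 3214 for falls. The part of transcript length in the small changes was not tested.

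Surface receptors of adhesion and guidance gave some of the widest ranges. Of 43 integrins and tetraspanins 26 fell and 6 rose (median −0.32), and of 43 adhesion and guidance receptors 22 fell and 13 rose (median −0.21). Over all genes tested 32.8% fell and 31.8% rose. NCAM1, a neural adhesion molecule also found on leukemic cells, was at 5.2, 5.34 and 5.88 CPM in WT and 0.205, 0.122 and 0.275 CPM in 11H1, and ITGA8 at 2.07, 2.34 and 2.31 CPM in WT and 0.205, 0.122 and 0.0611 CPM in 11H1. CDH1 (E-cadherin) was at 5.16, 5.75 and 6.56 CPM in WT and 25, 23.8 and 21.5 CPM in 11H1 (log2FC 2.02, SE 0.09, adjusted p = 7.22e-09 in edgeR), and ITGA10, a collagen receptor subunit, rose by 1.93. PLXNA3 and PLXNA4, plexins that receive semaphorins, rose by 1.45 and 1.36, and in 14B5 PLXNA4 fell (−3.01, adjusted p = 3.68e-07 for the direct test). SEMA3C, a semaphorin, fell by 2.80 and PLXNC1 by 3.26 on the log2 scale.

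Some changes followed position on the chromosomes. Genes were placed by GENCODE v29 on GRCh38 (16499 of 16675) and grouped in 262 windows of 10000000 bases with at least 20 tested genes. In 7 windows the median log2FC was below −0.5: 3 neighbouring windows of chromosome 2 from 100000001 to 130000000 (medians −0.63, −0.63 and −0.60) and the next one to 140000000 (−0.50), 2 of chromosome 5 from 150000001 to 170000000 (−0.60 and −0.66), and 1 of chromosome 7 from 110000001 to 120000000 (−0.59). Their medians in 14B5 against the same WT libraries ran from −0.41 to −0.64. In these windows 167 of 227 genes (73.6%) fell and 19 rose, and of the 16448 other genes 5309 (32.3%) fell and 5277 rose. The cut of −0.5 was chosen after the values were seen. Windows picked for a low median hold many falls by that choice, so these shares describe the windows and test nothing. Chromosome 5 had the lowest median of a whole chromosome (−0.23), with 354 of 716 genes lower and 125 higher, followed by chromosome 2 (−0.11).

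Several genes that ran against their list lie in these windows. PTTG1 is on chromosome 5 from 160421822 on, BUB1 on chromosome 2 from 110637698 on and MCM6 on chromosome 2 from 135839626 on, and without the genes of the windows 34 of 46 mitotic genes rose and 3 fell and 33 of 48 replication genes rose and 3 fell. Since the windows were picked for their low medians, leaving them out removes falls more than rises. The ribosomal protein genes that fell the most, RPS14 (chromosome 5) and RPL31 (chromosome 2), are in them, as are IL1RL1 and IL1B on chromosome 2 and TNIP1, an inhibitor of NF-kB, on chromosome 5. IL1B fell by 1.31 and TNIP1 by 1.05, the largest falls of the NF-kB list. BCL2L11 rose although it lies in such a window. Copy number was not measured in these files, and its part in the window medians was not tested.

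The highest window was on chromosome 12 from 130000001 to 140000000 (median 0.53, 22 of 31 genes higher and 1 lower), and it holds POLE, the replication gene that rose the most. In 14B5 the median of this window was 0.04. The next was on chromosome 6 from 20000001 to 30000000 (0.41), and its median was 0.05 without the 27 HIST genes it holds, whose own median was 1.36. Windows of chromosome X from 50000001 to 60000000 and of chromosome 19 from 50000001 to 60000000 followed at 0.33 and 0.32, and chromosomes 19 and 16 had the highest medians of nuclear chromosomes (0.13 and 0.12).

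**Figure D5:**
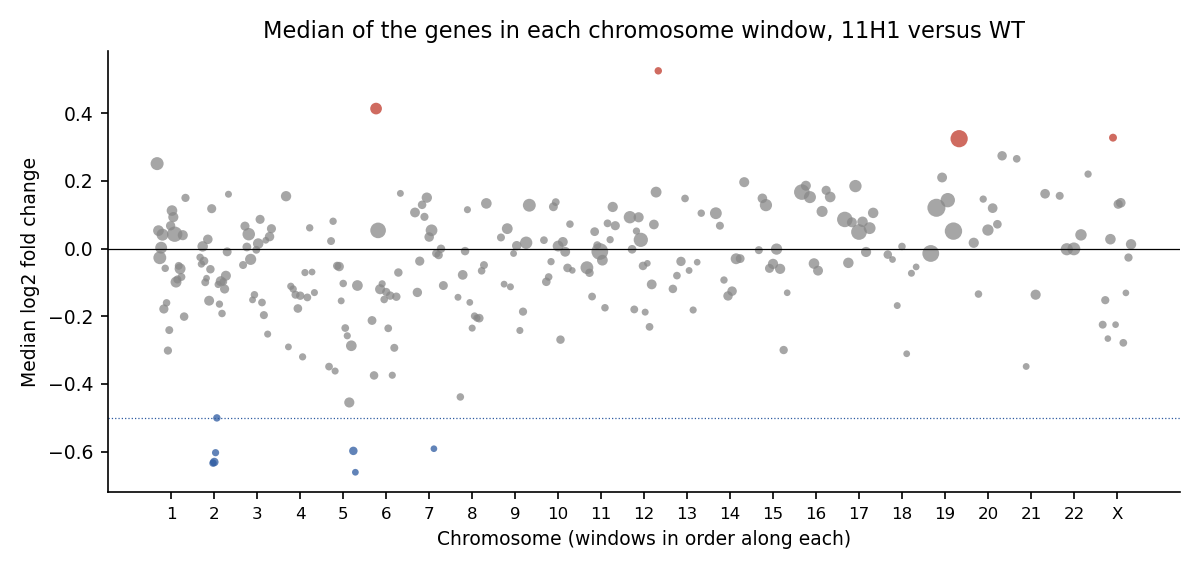
Each dot is a chromosome window with at least 20 tested genes, placed in order along its chromosome (x axis), with the median log2 fold change of its genes in 11H1 versus WT (y axis) and a size that grows with the number of genes; windows below −0.5 are blue, with the dotted line at −0.5, and those above 0.3 are red. The low windows form runs on chromosomes 2 and 5, and the highest dot is at the end of chromosome 12.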

How the data were processed

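Bulk RNA of WT SET2 cells and of the DYRK1A KO clones 11H1 and 14B5 (3 libraries each) was sequenced. The authors deposited 1 table of expected counts per gene from RSEM, after alignment with STAR 2.7.9a to GRCh38, with Picard also named in the submitters' processing notes. The strand setting of the counting is not given in the sources used here, so reads of a gene and of an antisense partner cannot be told apart. Columns were matched to samples by name, and 0 columns were left unused. Expected counts were rounded, genes were kept by filterByExpr and scaled by TMM, and 11H1 was tested against WT with edgeR's quasi-likelihood test (edgeR 4.0.16, limma 3.58.1, R 4.3.3) with Benjamini-Hochberg adjustment at 0.05 over all genes kept. 14B5 versus WT and 11H1 versus 14B5 were fitted in the same way on their own libraries. The SE is the absolute log2FC divided by the square root of F. A difference between 2 groups of 3 cannot reach an exact permutation p below 0.1, so no such test is given for summed levels. Counting intervals are 95% exact binomial intervals and cover counting error only. Positions and transcript lengths are from GENCODE v29, and promoters from RefSeq (GRCh38.p14). On simulated counts with known changes for 11H1 versus WT (5 runs over 16675 genes), 87% of the genes changed by a log2FC of 1 and 98% of those changed by 2 were recovered, and 6% of the calls were false. The simulation changed only a small share of the genes, all by 1 or 2. In the data 64.6% of genes were called, with a median absolute log2FC of 0.50. The simulated rates therefore do not carry over to the calls reported here.

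Gene lists, their members and the tests were chosen with earlier results of these data known. Genes named were DYRK1A, the 15 largest rises and falls of coding genes that averaged 5 CPM or more in the higher group without overlap of the libraries, the 3 largest of other biotypes, up to 10 genes at the floor of 3 counts in 1 group, up to 4 rises and 4 falls per list with a mean of at least 1 CPM, members of the kinase, DREAM, BCL2 and mitochondrial lists, and the 5 most abundant genes called in each direction. CD34, CISH, H2AFY, HELLS, HIST1H2AC, IL10RB, KIF15, KIF4A, MALAT1, NEAT1, PIM1 and TAP1 lie outside this rule and were chosen after their values were seen. Alternatives were DESeq2 1.42.0 (size factors, Wald test), limma-voom, other filters, a fit of 3 groups, a replicate block, a test against a log2FC of 1, and leaving out each library. A few genes that the rule covers are not reported here.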

Additional observations from a re-analysis of the deposited data

Results flagged for a closer look

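Of the 220 genes named in the report with a direct test of the clones, 190 differed past the threshold in edgeR (63.7% over all genes so tested). Many named genes were picked for the size of their change in 11H1 versus WT, so the count cannot be read against that share. Of the 190 genes, 18 also passed the threshold against WT in opposite directions in the 2 KO clones. The share of such opposite genes over all genes was not counted. HIST1H2AC, IL10RB, PIM1 and TAP1 were chosen after their values were seen, so the count and its split by direction partly reflect that choice. Both clones were compared with the same WT libraries, so the values that follow are the log2FC of 11H1 versus 14B5 from a fit without WT. MEG3, an imprinted lncRNA, differed by 6.82, the plexin PLXNA4 by 4.36, the thrombin receptor F2RL2 by 3.48, CD3D by 3.13 and the collagen COL1A1 by 2.57. HIST1H2AC differed by 1.44, the chemokine CXCL8 by 1.34, the kinase HIPK2 by 1.16 and NBEAL2 of alpha granules by 1.08. HOXB3 and KMT2B each differed by 0.94, JAK3 by 0.70, MYH9 by 0.66, NLRC5 by 0.54 and HDC by 0.51, all of them higher in 11H1. PIM1 (−0.61), TAP1 (−0.70) and IL10RB (−0.80) were lower in 11H1 than in 14B5, having fallen in 11H1 and risen in 14B5. No reason for these differences was tested.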

How the results depend on the processing

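The 10772 genes past the threshold ranged from 9685 to 11091 when 1 library was left out (4711 to 5394 higher and 4974 to 5697 lower in 11H1). Under the other alternatives except the test against a minimum change, the count ran from 9852 with at least 10 counts in every library to 11489 with no filter on low counts, where 5297 were higher and 6192 lower. DESeq2's Wald test called 10018 genes. Testing for a log2FC beyond 1 in place of any change left 1220 genes, 354 higher and 866 lower, by the construction of that test. Whether the replicate numbers shared by the groups pair the libraries is not stated. Same-numbered libraries had correlations of −0.121, 0.0372 and 0.000764 in their deviations from the group means, and differently numbered ones ran from −0.115 to 0.122. With 3 libraries per group these values cannot decide whether the libraries are paired. A fit with the replicate number as a block called 10710 genes, 5268 higher and 5442 lower. No gene past the threshold and named in the report reversed direction under any of the 16 alternatives in which it could be tested, which left out 22 of the 233 genes where 10 counts were required of each library, 6 with protein-coding genes only and 13 without mitochondrially encoded genes. The medians of 7 of the 46 lists changed sign under at least 1 alternative, those for deoxynucleotide synthesis, red cell, NF-kB, Notch, proteasome, integrated stress and clock genes. The mitochondrially encoded mRNAs that rose numbered 6 with DESeq2's Wald test and 13 without a filter on low counts, and the Notch genes that rose numbered 5 with DESeq2's Wald test. The cause of these shifts was not tested. Depth limits the statements on genes near the floor, for which intervals span several-fold, and 1 clone with 3 libraries limits the rest: a difference from WT is a difference of this clone.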
